A study of Mus musculus with 4 samples.

Results

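DNA repair genes were followed in primary mouse cortical culture by pathway, as 47 genes chosen by symbol from the established repair routes, out of 37437 genes measured. They comprised 5 resolvase genes, 10 of nucleotide excision repair, 9 of base excision and single-strand break repair, 3 of mismatch repair, 4 of end joining, 10 of recombination, 4 of damage signalling and 2 of crosslink repair by the Fanconi pathway. RNA was compared between shCTCF cultures (2 libraries), in which adeno-associated virus delivered a knockdown of Ctcf, and shLAC control cultures (2 libraries). The shLAC construct is directed at lacZ, a bacterial gene that mice lack. The labels used here state neither strain, age nor time after infection. Nor do they say whether the 2 libraries of a group came from separate cultures, so p-values measure only how much these libraries varied, which may be technical.

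Repair pathways divide by the lesion they remove. Nucleotide excision cuts out a short stretch of strand around a bulky lesion, base excision removes a single damaged base, mismatch repair corrects replication errors, and broken ends are joined directly or copied from a sister chromatid by recombination. Neurons no longer divide, so they are known to rely on excision repair, single-strand break repair and end joining, while recombination and crosslink repair belong mainly to cells that replicate DNA. The resolvases are nucleases that cut branched DNA left by recombination or stalled forks: MUS81 is active as a dimer with EME1 or EME2, GEN1 acts alone, and SLX4 is the scaffold that holds MUS81-EME1 and the related nuclease XPF-ERCC1, encoded by Ercc4 and Ercc1.

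Of the 47 genes 38 were tested and 2, or 5.26%, passed the test, close to the 6.51% called among all 11139 tested coding genes. Mus81 fell to 35.8% of its control level, and Ercc4 rose to 149.8%. The promoters of the 2 called genes are shown with that of Eme2, a MUS81 partner, for comparison. All run from 250 bases before to 50 bases after the annotated start. They are RefSeq sequences of GRCm38.p6, printed 5′ to 3′ on the strand of the gene, from chr19:5488330-5488629 (- strand) for Mus81, chr16:13109486-13109785 (+ strand) for Ercc4 and chr17:24895038-24895337 (- strand) for Eme2. Capitals mark matches to 1 of 2 letter patterns of the CTCF recognition sequence. The longer pattern has fixed CC, AG and GGC with 3 and then 2 free bases between them, and the shorter one is AGGGGGCGC.
Mus81: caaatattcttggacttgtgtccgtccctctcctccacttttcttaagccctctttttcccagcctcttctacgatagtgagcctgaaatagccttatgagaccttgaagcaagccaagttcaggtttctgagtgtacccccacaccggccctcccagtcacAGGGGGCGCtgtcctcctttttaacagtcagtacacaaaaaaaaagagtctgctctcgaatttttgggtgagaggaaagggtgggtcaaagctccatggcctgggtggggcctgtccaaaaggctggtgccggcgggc
Ercc4: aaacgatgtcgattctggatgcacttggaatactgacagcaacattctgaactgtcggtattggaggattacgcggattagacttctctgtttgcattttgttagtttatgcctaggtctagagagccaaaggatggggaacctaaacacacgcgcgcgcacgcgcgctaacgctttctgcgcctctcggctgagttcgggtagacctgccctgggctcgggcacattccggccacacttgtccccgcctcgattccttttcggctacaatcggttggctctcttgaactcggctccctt
Eme2: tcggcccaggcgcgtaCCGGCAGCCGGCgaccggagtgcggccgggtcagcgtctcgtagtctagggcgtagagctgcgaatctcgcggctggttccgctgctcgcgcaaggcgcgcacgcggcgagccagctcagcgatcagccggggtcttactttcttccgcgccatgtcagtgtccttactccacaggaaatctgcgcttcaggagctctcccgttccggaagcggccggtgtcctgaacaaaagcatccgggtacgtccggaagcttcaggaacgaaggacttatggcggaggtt

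Both patterns were searched on both strands, and they can overlap each other. Promoters were found for 38 of the 47 genes, 41 promoters in all. The longer pattern was present in 3 of the 41, in Eme2, Ddb1 and Atm, against 8.61% of the 32851 promoters in the RefSeq table. AGGGGGCGC was present in 1 of the 41, that of Mus81, on the strand of the gene and starting 88 bases before the annotated start. It was present in 1.25% of all promoters. This shorter pattern was chosen after the Mus81 sequence had been read. Among tested coding genes with a promoter in the table, the longer pattern was present in 19.3% of 301 genes that fell, in 13.2% of 242 that rose and in 15.7% of 8231 that did not pass. The shorter one was present in 7.31% (22 genes, Mus81 among them), 4.96% and 2.79%. Both are descriptions with no test. Binding of CTCF was not measured here, and a match shows only that these letters occur in the window.

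Levels are TPM, a length-corrected share of all transcripts, and keep no sequencing depth, so the depth behind each value is unknown. 1 control library stood apart: predicted loci named Gm held 28% of TPM in shLAC replicate 2, against 9.21% to 11.7% in the other 3 libraries. TPM sums to a fixed total, so other genes read lower there, and the median log2 fold change of 11139 tested coding genes was 0.17 as deposited. Values called scaled were divided by a median-ratio factor per library, which put that median at 0.00. As deposited 67.9% of the called genes were higher, and after scaling 43.4% of 725. Ctcf was at 8.11 and 8.80 scaled TPM in shLAC and at 3.25 and 3.40 in shCTCF, 39.3% of control (log2 fold change -1.13, SE 0.0668, limma adjusted p = 0.00209). Of 12 neuron markers, all were expressed, with Map2 at a mean of 258.6 TPM and Tubb3 at 250.5 TPM, while 6 of 7 microglial and 7 of 8 fibroblast and vessel markers did not reach the expression filter and Cldn5 was listed at 0 in each library. All 9 astrocyte markers, 7 of 8 oligodendrocyte lineage markers and 17 of 18 proliferation markers also reached the filter. Among them were Slc1a3 at a mean of 36.8 TPM, Olig1 at 33.9 TPM and Mki67 at 6.70 TPM, so the cultures were not neurons alone.

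Repair transcripts were scarce in these cultures. Of the 47 genes, 38 reached 1 TPM in at least 2 libraries and were tested, and their median level of 3.83 TPM lay below the median of 7.02 TPM over all tested coding genes. Each of the 38 reached 1 TPM in at least 1 library of each group, so that none passed the filter through 1 group alone. The 9 genes below the filter were Eme1, Gen1, Ung, Brca1, Brca2, Palb2, Wrn, Fancd2 and Fanci, with means from 0.245 TPM in Palb2 to 0.990 TPM in Wrn. Blm, at a mean of 1.10 TPM, lay just above it. The most abundant transcripts were Ddb1 at 41.8 TPM, Parp1 at 22.6, Apex1 at 18.4, Polb at 14.6 and Trp53bp1 at 13.7. Genes of recombination and crosslink repair made up 6 of the 9 below the filter, whereas all 10 nucleotide excision genes and all 4 end joining genes passed it. Among 132 further genes of these pathways the order was different: 4 of 8 for end joining, 7 of 20 for recombination, 2 of 14 for the Fanconi pathway and 0 of 20 for nucleotide excision lay below the filter.

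**Figure D1:**
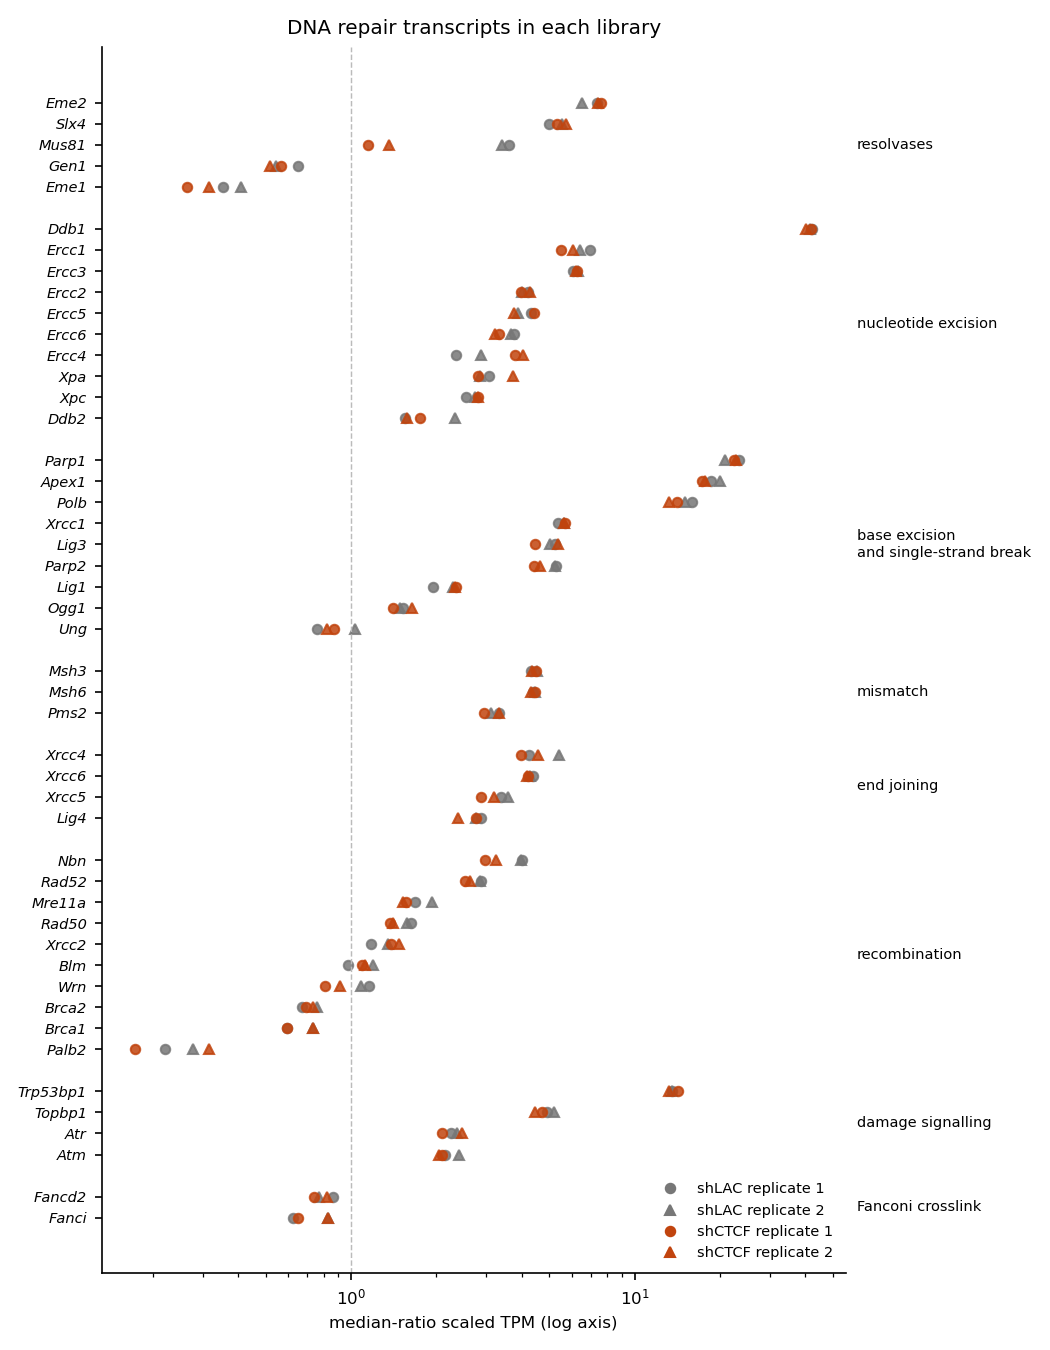
Scaled TPM (log axis) of the 47 DNA repair genes in the 4 libraries, ordered by level within each pathway; circles and triangles are replicates 1 and 2, grey is shLAC and orange is shCTCF, and the dashed line marks 1 TPM. Mus81 and Ercc4 stand out by the gap between the groups, with Mus81 at 3.39 to 3.61 in shLAC and 1.15 to 1.36 in shCTCF.

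At a limma adjusted p below 0.05, 1 of the 38 tested genes fell (Mus81) and 1 rose (Ercc4), and 36 did not pass. Over all 11139 tested coding genes 6.51% were called, 3.68% lower and 2.83% higher, so the count of repair genes was close to the background. Their median log2 fold change was -0.03, beside 0.00 over all tested genes, and 24 of 38 were negative against 50.1% of all. As deposited 7 of 38 were negative, where all tested genes had a median of 0.17 and the repair genes one of 0.12. After scaling the groups did not overlap in 20 of 38 genes, 15 lower and 5 higher, against a background of 54.8% of all genes, 27.2% lower and 27.6% higher. An unadjusted p below 0.05 was seen in 6 of 38 genes, against a background of 23.9%. These fold changes are on the log2(scaled TPM + 1) scale, which understates changes of low genes. For each of the 36 uncalled genes the 95% interval on that scale lay within 0.5 of 0, and for 27 within 0.3. The interval held 0 in 32 of the 36.

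**Figure D2:**
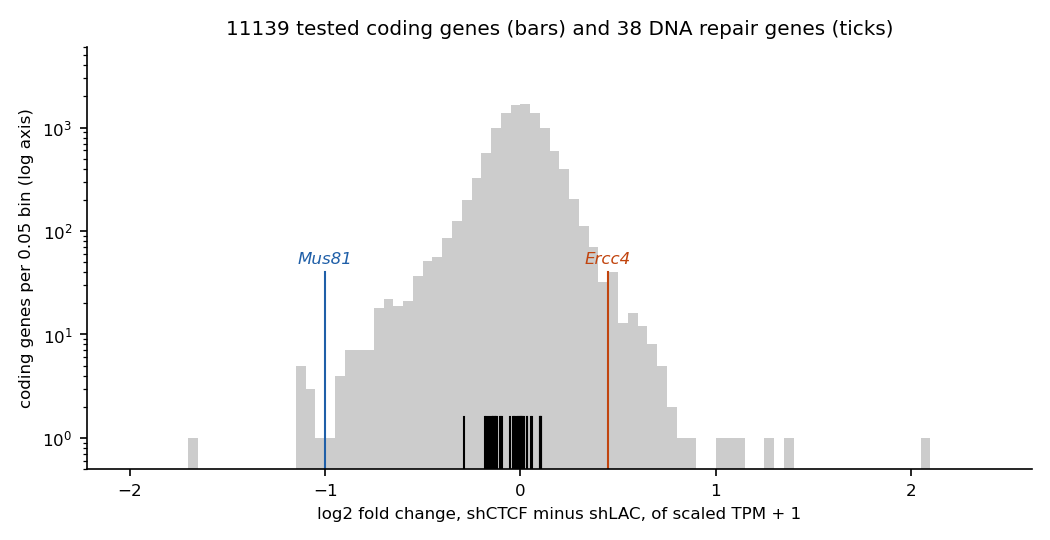
Log2 fold changes (shCTCF minus shLAC, scaled TPM + 1) of 11139 tested coding genes as grey bars (counts on a log axis) and of the 38 tested repair genes as ticks, with the called genes drawn as taller coloured lines. The uncalled repair genes lie from -0.29 to 0.11, and Mus81 lies in the far lower tail.

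The resolvase genes were led by the fall of Mus81. Mus81 (ENSMUSG00000024906) is a protein-coding gene on the - strand of chromosome 19, from 5482345 to 5488402 on GRCm38. Control libraries held 3.78 and 2.82 TPM as deposited, and shCTCF libraries 1.26 and 1.42 TPM. After scaling it was at 3.61 and 3.39 in shLAC and 1.15 and 1.36 in shCTCF, so both knockdown libraries lay below both controls. The scaled mean was 2.80-fold lower (3.50 ± 0.155 against 1.25 ± 0.146, SD, n = 2). On the log2(scaled TPM + 1) scale, which understates changes of low genes, the fold change was -1.0 (SE 0.0787, 95% interval -1.19 to -0.81, limma adjusted p = 0.00324). Of the 11139 genes 10, or 0.0898%, fell by as much or more. It passed in each of the 15 alternative fits in which it was tested, with log2 fold changes from -1.42 to -0.87 and limma adjusted p up to 0.0352. An exact permutation test of 2 against 2 libraries cannot give a 2-sided p under 0.333.

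Of the other resolvase genes, the 2 that were tested did not pass and the other two lay below the filter. Eme2, the MUS81 partner of S phase, was at 7.35 and 6.53 scaled TPM in shLAC and 7.62 and 7.44 in shCTCF. Its log2 fold change was 0.11 (95% interval -0.06 to 0.27, limma adjusted p = 0.396). The level of Eme2 is uncertain, since Spsb3 overlaps it by 3667 bases on the opposite strand and Mapk8ip3 by 2935 on the same strand. Strandedness is not given, and strand alone could not separate Eme2 from Mapk8ip3. Slx4, the scaffold, was at 5.01 and 5.55 in shLAC and 5.33 and 5.72 in shCTCF, with overlapping groups (log2 fold change 0.06, 95% interval -0.11 to 0.23, limma adjusted p = 0.676). Eme1, the other partner of MUS81, was below the filter at 0.353 and 0.409 scaled TPM in shLAC and 0.264 and 0.315 in shCTCF. Gen1 was also below it, at 0.650 and 0.541 in shLAC and 0.565 and 0.515 in shCTCF.

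Ratios within a library do not depend on how libraries are scaled, and the pairs were chosen after the values were seen. Mus81 stood at 0.492 and 0.519 of Eme2 in the shLAC libraries and at 0.151 and 0.182 in the shCTCF libraries. Against Slx4 the ratio was 0.721 and 0.612 in shLAC and 0.216 and 0.237 in shCTCF. Against the scarce Eme1 it was 10.2 and 8.29, and then 4.34 and 4.30. In each of these 3 ratios both knockdown libraries lay below both controls. All 3 share Mus81, a gene singled out by its fall, so they add no separate support for it.

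No tested coding gene around Mus81 passed the test. Within 250 kb, a window chosen after the values were seen, 21 coding genes were tested and 0 passed in either direction, against a background of 6.51%. Their log2 fold changes ran from -0.25 in Eif1ad to 0.38 in Rnaseh2c, with a median of 0.00. Cfl1, which encodes the actin-severing protein cofilin, lies back to back with Mus81 on the opposite strand, with 2052 bases between the genes, and was at 445.2 and 425.6 scaled TPM in shLAC and 413.1 and 406.4 in shCTCF (log2 fold change -0.09, limma adjusted p = 0.350). Efemp2, an extracellular matrix gene, overlaps the far end of Mus81 by 173 bases on the opposite strand and was at 2.04 and 2.36 in shLAC and 2.33 and 2.08 in shCTCF (log2 fold change 0.00, limma adjusted p = 0.983). On the other side the nearest coding gene that does not overlap Mus81 is Ctsw, below the filter at 0.267 and 0.313 scaled TPM in shLAC and 0.137 and 0.134 in shCTCF.

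**Figure D3:**
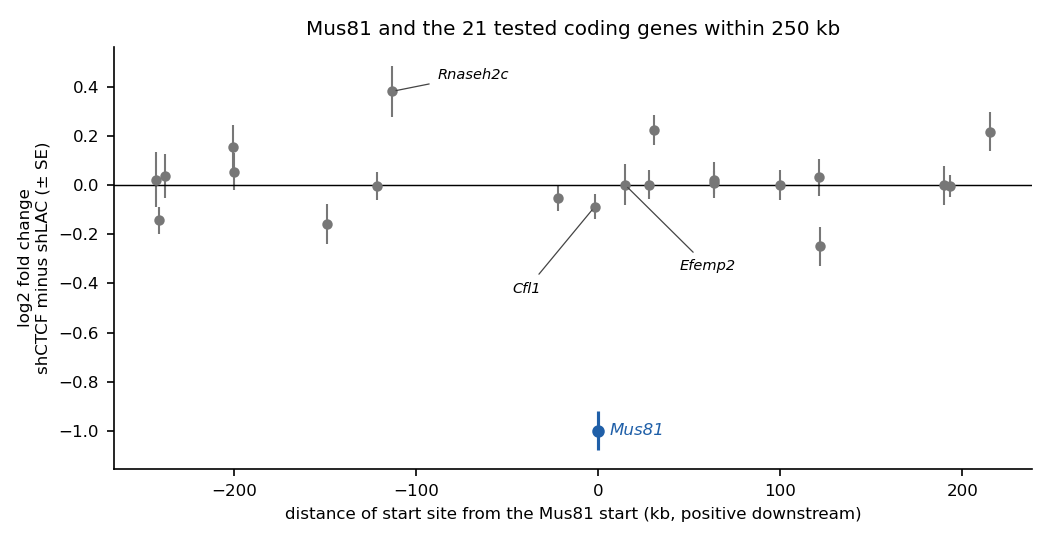
Log2 fold change (shCTCF minus shLAC, ± SE from limma) of Mus81 and the 21 tested coding genes within 250 kb, by the distance of their start from that of Mus81 in kb. Mus81 lies at -1.0 while its neighbours lie between -0.25 and 0.38.

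Among 10 nucleotide excision genes, all tested, Ercc4 rose and the other 9 did not pass. Ercc4 (ENSMUSG00000022545, protein-coding, on the + strand of chromosome 16 from 13109684 to 13150617 on GRCm38) encodes XPF, the nuclease that makes the 5′ incision. As deposited its level was 2.45 and 2.39 TPM in controls, against 4.14 and 4.23 TPM after Ctcf knockdown. After scaling it was at 2.34 and 2.87 in shLAC and 3.78 and 4.04 in shCTCF, with both knockdown libraries above both controls. The log2 fold change was 0.45 (SE 0.0889, 95% interval 0.24 to 0.66, limma adjusted p = 0.0367), a size reached by 107 genes or 0.961% of those tested. The call was lost without shCTCF replicate 1 or 2 (limma adjusted p = 0.0741 and 0.150), with genes of all biotypes in the scaled fit (limma adjusted p = 0.119) and with no filter (limma adjusted p = 0.0947), and Ercc4 was higher in each.

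Its partner Ercc1 did not pass and had a negative log2 fold change in each of the 16 alternative fits. Ercc1, which positions XPF on DNA, was at 6.95 and 6.44 scaled TPM in shLAC and 5.50 and 6.08 in shCTCF (log2 fold change -0.18, limma adjusted p = 0.184). The ratio of Ercc4 to Ercc1 within a library was 0.337 and 0.447 in shLAC and 0.687 and 0.664 in shCTCF, a 1.72-fold higher mean. Ercc4 was singled out by its rise, so this ratio adds no separate support for it. Of the nearest coding genes on either side, 1 fell and 1 did not pass. Mrtfb, a coactivator of serum response factor, starts 146797 bases downstream of the Ercc4 start and fell from 20.0 and 20.4 scaled TPM to 12.6 and 12.9 (log2 fold change -0.63, SE 0.0501, limma adjusted p = 0.00336). On the other side Shisa9, 838781 bases away, had a log2 fold change of -0.06 (limma adjusted p = 0.662).

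Among the uncalled nucleotide excision genes, Ddb1, the damage sensor subunit that also serves cullin ubiquitin ligases, was the most abundant. It was at 42.2 and 41.6 scaled TPM in shLAC and 42.0 and 40.3 in shCTCF. Its log2 fold change was -0.03, with a 95% interval from -0.14 to 0.09. The helicases of the TFIIH complex, Ercc2 and Ercc3, stood at 100.2% and 100.4% of control. Ercc5, the nuclease of the 3′ incision, stood at 99.5%, and the damage recognition genes Xpc and Xpa at 105.9% and 110.4%. Ercc6, which acts in transcription-coupled repair, stood at 88.2% (3.75 and 3.66 scaled TPM in shLAC, 3.33 and 3.21 in shCTCF, limma adjusted p = 0.243). Ddb2, whose product binds ultraviolet lesions, differed between the shLAC libraries at 1.55 and 2.33 scaled TPM, and was at 1.75 and 1.57 in shCTCF. It had a limma adjusted p of 0.579 with all libraries and of 0.0486, as lower, without shLAC replicate 1.

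**Figure D4:**
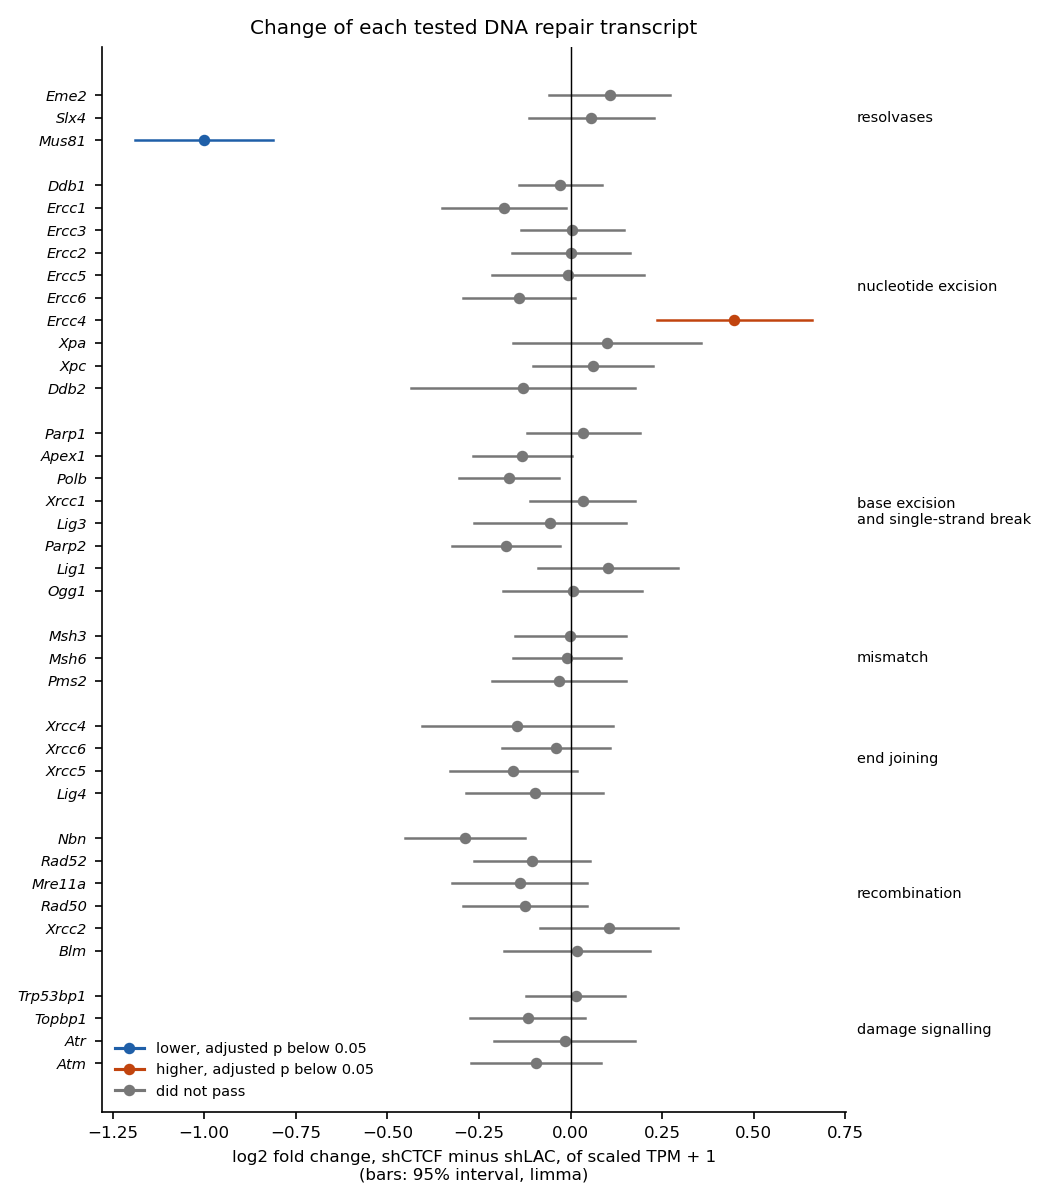
Log2 fold change (shCTCF minus shLAC, scaled TPM + 1) with its 95% interval from limma for each of the 38 tested repair genes, by pathway. Mus81 (blue) and Ercc4 (orange) have adjusted p below 0.05, and the 36 others (grey) did not pass.

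Base excision and single-strand break genes showed 0 calls among 8 tested, against a background of 6.51%. An unadjusted p below 0.05 was seen in 2 of the 8 (background 23.9%). Parp1, which senses strand breaks and builds poly(ADP-ribose), was at 23.4 and 20.8 scaled TPM in shLAC and 22.5 and 22.8 in shCTCF (log2 fold change 0.04, 95% interval -0.12 to 0.19). Its paralog Parp2 was at 5.26 and 5.22 in shLAC and 4.41 and 4.63 in shCTCF (log2 fold change -0.18, limma adjusted p = 0.145). Polb, the gap-filling polymerase, was at 15.9 and 15.1 in shLAC and 14.1 and 13.3 in shCTCF (log2 fold change -0.17, limma adjusted p = 0.139). The groups did not overlap in 4 of the 8 tested genes, against a background of 54.8%. Both knockdown libraries were the lower ones for Parp2, Polb and Apex1 and the higher ones for Lig1, without passing the test. Apex1, the abasic site endonuclease, stood at 90.8% of control, and Lig3 and its scaffold Xrcc1 at 95.8% and 102.7%. Ogg1, the glycosylase for oxidised guanine, stood at 100.9%, and the replicative ligase gene Lig1 at 110.6%. The summed level of the 9 genes was 77.3 ± 0.954 scaled TPM in shLAC and 73.6 ± 0.931 in shCTCF (SD, n = 2). Most of that difference lay in Polb, with means of 15.5 and 13.7, and Apex1, with means of 19.3 and 17.5. Of the 8 tested genes, 4 had a positive log2 fold change.

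Mismatch repair genes had 0 calls among 3 (background 6.51%) and the narrowest range of log2 fold changes of the groups with tested genes. Msh3 and Msh6, the alternative partners that recognise loops and mispairs, stood at 99.9% and 99.1% of control, and Pms2, an endonuclease subunit, at 97.2% (3.33 and 3.10 scaled TPM in shLAC, 2.94 and 3.32 in shCTCF). Msh3 was at 4.33 and 4.53 scaled TPM in shLAC and 4.51 and 4.35 in shCTCF, with overlapping groups. The lowest limma adjusted p of the 3 genes was 0.836, and their log2 fold changes lay between -0.03 and 0.00.

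End joining genes had 0 calls among 4 (background 6.51%), and their log2 fold changes lay between -0.16 and -0.04. Xrcc5 and Xrcc6 encode the Ku subunits that bind broken ends. Xrcc5 was at 3.39 and 3.58 scaled TPM in shLAC and 2.87 and 3.19 in shCTCF (log2 fold change -0.16, 95% interval -0.33 to 0.02, limma adjusted p = 0.249), and Xrcc6 at 4.37 and 4.28, then 4.20 and 4.17. Lig4, the ligase of this pathway, stood at 91.3% of control, and its partner Xrcc4, the most abundant of the 4, at 88.0%. Xrcc4 was at 4.24 and 5.42 in shLAC and 3.96 and 4.55 in shCTCF, with overlapping groups. As deposited Lig4, Xrcc4 and Xrcc6 had log2 fold changes of 0.05, 0.02 and 0.12, each below the median of 0.17 over all genes.

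Recombination genes had 0 calls among 6 tested (background 6.51%). The closest was Nbn, the NBS1 subunit of the break-sensing MRN complex, at 4.02 and 3.97 scaled TPM in shLAC and 2.95 and 3.24 in shCTCF. Both knockdown libraries lay below both controls, at 77.5% of control (log2 fold change -0.29, SE 0.0687, 95% interval -0.45 to -0.12, limma adjusted p = 0.0576). Over the alternatives its limma adjusted p ran from 0.0340 with a replicate block to 0.742 as deposited over all biotypes. The other MRN subunits, Rad50 and Mre11a, stood at 86.6% and 85.6% of control, with limma adjusted p of 0.340 and 0.328. Rad52, a strand-annealing protein gene, stood at 90.5%, Xrcc2 at 113.2% and the helicase gene Blm at 102.1%. Of the untested genes, Brca1 and Brca2 stood at 100.1% of control each, Palb2, which links their products, at 98.4% and Wrn at 77.2%. Wrn was at 1.16 and 1.08 scaled TPM in shLAC and 0.812 and 0.916 in shCTCF, and had a limma adjusted p of 0.289 when no filter was used.

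Damage signalling genes also had 0 calls among 4 (background 6.51%). Trp53bp1, which steers breaks to end joining, was at 13.6 and 13.5 scaled TPM in shLAC and 14.2 and 13.2 in shCTCF (log2 fold change 0.01, 95% interval -0.12 to 0.15). Topbp1, an activator of ATR, was at 4.89 and 5.21 in shLAC and 4.70 and 4.46 in shCTCF, 90.6% of control (log2 fold change -0.12, 95% interval -0.27 to 0.04, limma adjusted p = 0.328). The kinase genes Atm and Atr stood at 90.9% and 98.6%. The Fanconi genes Fancd2 and Fanci, whose products clamp on DNA at crosslinks, were below the filter at 95.7% and 101.9% of control.

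**Figure D5:**
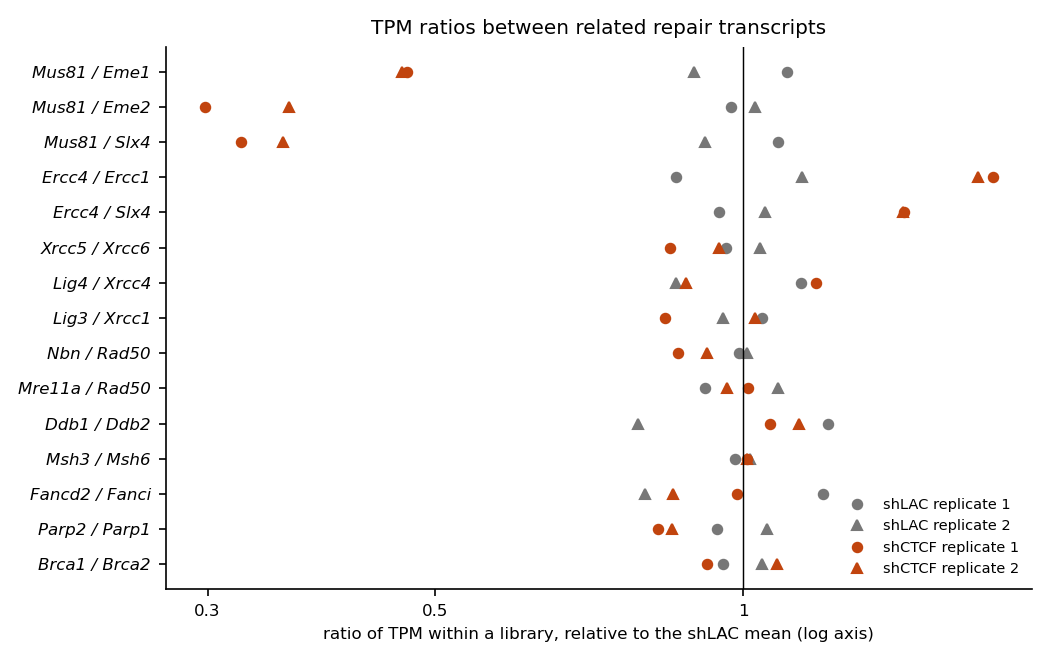
Ratio of TPM between related repair transcripts within each library, divided by the mean ratio of the 2 shLAC libraries (log axis), with symbols as replicates and colours as groups. The Mus81 ratios lie left of 1 and the Ercc4 ratios right of 1 in both shCTCF libraries, and the mean ratios of the other pairs lie between 0.839 and 1.10 of control.

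In 7 of the other 10 pairs the groups overlapped. No background of such ratios over all gene pairs was made. For single genes after scaling, the groups did not overlap in 54.8% of all tested, so pairs that lie apart are described only. Msh3 to Msh6 stood at 0.985 and 1.02 in shLAC and at 1.01 in each shCTCF library. Lig4 to Xrcc4 was at 0.676 and 0.510 in shLAC and 0.698 and 0.522 in shCTCF, and Brca1 to Brca2 at 0.886 and 0.968, then 0.855 and 1.0. Nbn to Rad50 was at 2.48 and 2.52 in shLAC and lower in both shCTCF libraries, at 2.16 and 2.31. Parp2 to Parp1 was likewise lower, at 0.225 and 0.251, then 0.196 and 0.203, as was Xrcc5 to Xrcc6, at 0.775 and 0.837, then 0.685 and 0.764.

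Beyond these genes, 132 others of the same pathways were listed, of which 105 were tested, 1 fell, 2 rose and 102 did not pass (background 6.51%). Their median log2 fold change was -0.02. Rpa2, a subunit of the protein that coats single-stranded DNA, fell from 4.01 and 4.09 scaled TPM to 2.69 and 3.05 (log2 fold change -0.38, SE 0.0735, limma adjusted p = 0.0319). Nabp2, which encodes another single-stranded DNA binding protein, rose from 18.9 and 18.7 to 22.6 and 23.0 (log2 fold change 0.26, limma adjusted p = 0.0274). Trp53, the gene of p53, rose from 3.98 and 4.16 to 5.18 and 5.37 (log2 fold change 0.31, limma adjusted p = 0.0395). In nucleotide excision 1 of 20 tested was called, in base excision 0 of 18, in mismatch repair 0 of 9, in end joining 0 of 4, in recombination 0 of 13, in signalling 1 of 18, in the Fanconi list 0 of 12, in translesion synthesis and direct reversal 0 of 7 and in the list of other resolvase-related and single-strand binding genes 1 of 4, which was Nabp2.

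Markers of cell types are given beside these results because repair genes differ between dividing and resting cells. Of 17 tested proliferation markers 0 passed, against a background of 6.51% over all tested coding genes. The summed level of the 18 listed was 90.0 and 108.2 scaled TPM in shLAC and 99.6 and 101.3 in shCTCF. Tyms alone was at 25.1 and 36.2 in shLAC and 30.6 and 28.3 in shCTCF. Of 9 astrocyte markers 2 fell (background 3.68%), and 8 had a negative log2 fold change, against 50.1% of all tested genes. The sum of the 9 was 135.6 and 114.1 in shLAC and 110.0 and 87.8 in shCTCF. Of 12 neuron markers 2 rose (background 2.83%), and 11 had a positive log2 fold change. The sum of the 12 was 1153 and 1147 in shLAC and 1210 and 1185 in shCTCF. For oligodendrocyte lineage markers 0 of 7 tested passed (background 6.51%). The sums over all 8 listed were 82.3 and 69.5 in shLAC against 83.9 and 76.2 in shCTCF. Of 8 fibroblast and vessel markers Dcn alone was tested, and it fell to 61.8% of control (log2 fold change -0.48, limma adjusted p = 0.0182). The sum of that list was 3.55 and 3.52 in shLAC and 2.42 and 2.16 in shCTCF. Dcn alone held 3.03 and 2.80 of it in shLAC and 1.92 and 1.69 in shCTCF. The sum is thus mostly 1 gene, and the 7 others were below the filter. The 1 tested microglial marker, Cd68, did not pass. The part of such shifts in the changes of Mus81 and Ercc4 was not tested, and in bulk RNA fewer cells of a type and less RNA per cell cannot be told apart.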

How the data were processed

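The authors deposited TPM per Ensembl gene, 1 file per library for 2 shLAC and 2 shCTCF libraries, each summing to 1000000. RSEM 1.2.28, CASAVA and mm10 are named per the submitters' processing notes; for aligner settings, annotation and strandedness nothing is given in the sources used here. TPM keeps no depth, so no counting interval is given. Symbols and positions came from GENCODE vM21 (GRCm38), which matched 37060 of 37437 identifiers and all 47 members. Without strand, reads from the stretches that overlapping genes share cannot be assigned by strand. Of the 47 genes, 29 are overlapped by another annotated gene, and 16 by a tested coding gene.

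Coding genes with an exon union of at least 300 nt, without predicted loci named Gm, and reaching 1 TPM in 2 or more libraries were tested (11139). Values were scaled by median ratio and tested on log2(scaled TPM + 1), in R 4.3.3, by limma 3.58.1 without covariates, with a prior trended on the mean (4.79 degrees of freedom) and Benjamini-Hochberg adjustment at 0.05 over all tested genes. The fit was first tested on simulated data. Members, lists and alternatives were chosen with earlier results of these data known. Described in full were Ctcf, called members, all resolvases, the most abundant and most changed member of each group, up to 4 called genes per further list, and the coding genes overlapping or nearest to called members; other members named were added after their values were seen. Alternatives changed the scaling, gene set, filter, pseudocount, prior or threshold, added a replicate block, or dropped 1 library.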

Additional observations from a re-analysis of the deposited data

How the results depend on the processing

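The fall of Mus81 passed in all 15 alternatives that tested it. The 1 gene called higher, Ercc4, became 0 with all biotypes after scaling, with no filter, and without either shCTCF library. With a filter at a mean of 5 TPM neither gene was tested, so 0 fell and 0 rose among 11 members. The members called lower became 2 at a threshold of 0.10 and in the replicate block, where Nbn joined, and ranged from 1 to 2 with 1 library left out. Members called higher ranged from 0 to 1 there. Of 581 single-gene comparisons across alternatives, 575 stayed on their side of the threshold, 4 lost a call (Ercc4 in each) and 2 gained one (Nbn in the block, Ddb2 without shLAC replicate 1). Counts over all genes moved further, and the cause was not tested. The 410 lower and 315 higher coding genes became 50 and 106 without scaling, 87 and 47 with all biotypes scaled, 159 and 86 with no filter, 240 and 195 at a mean of 5 TPM, and 717 and 604 at 0.10. All biotypes as deposited gave 116 lower. With 1 library left out, lower calls ranged from 144 to 623 and higher calls from 77 to 525, the fewest without shCTCF replicate 2, and a lone library is assumed to vary like the other group. In the replicate block the pairing by number gave 765 lower and 641 higher; same-numbered libraries deviated together at r = 0.251 across genes, but the labels tie only numbers. Depth is unknown, which limits statements on genes near 1 TPM.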

Other observations

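Among the 132 further pathway genes, 27 were below the expression filter and so were not tested. Of these and the 9 untested members, 1 of 36 passed when no filter was used. Over all 19038 genes of that fit 159 were called lower and 86 higher. The 1 gene was Alkbh2, singled out after its values were seen, whose product reverses alkylation of bases directly. The shLAC libraries held 0.870 and 0.850 TPM of Alkbh2, and the shCTCF libraries 0.280 and 0.220 TPM, or 25.1% of control after scaling, so both knockdown libraries lay below both controls. On the log2(scaled TPM + 1) scale the fold change was -0.64 (SE 0.0660, limma adjusted p = 0.0237 with no filter, over 19038 genes). It was under 1 TPM in each library as deposited, and the number of reads behind it is unknown.

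Alkbh2 (chromosome 5, 114123926 to 114128218, - strand) lies back to back with Ung, the uracil glycosylase gene, with 2168 bases between their starts on GRCm38. Ung was at 0.755 and 1.03 scaled TPM in shLAC and 0.866 and 0.821 in shCTCF, with overlapping groups. The Alkbh2 promoter is shown because it holds both letter patterns searched above, from RefSeq GRCm38.p6 at chr5:114128169-114128468 (- strand), with the 14 bases that they cover in capitals. The longer pattern starts 52 bases and AGGGGGCGC 47 bases before the annotated start, and the Ung promoter has neither. Both patterns also occur in promoters of genes that rose or did not pass, as given above. Binding of CTCF was not measured, and a link of these letters to the fall of Alkbh2 was not tested.
Alkbh2: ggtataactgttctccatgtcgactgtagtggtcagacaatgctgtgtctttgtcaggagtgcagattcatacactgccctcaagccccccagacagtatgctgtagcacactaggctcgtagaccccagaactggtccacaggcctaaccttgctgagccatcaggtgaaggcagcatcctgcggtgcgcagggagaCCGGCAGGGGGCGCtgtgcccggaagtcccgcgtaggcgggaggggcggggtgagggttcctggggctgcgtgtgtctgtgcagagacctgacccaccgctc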
